A study of Mus musculus with 8 samples.

Results

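Bridge-like lipid transfer proteins are long rods with a hydrophobic groove along which phospholipids slide in bulk from the endoplasmic reticulum (ER) to another membrane. In mammals they include the VPS13 paralogs and the ATG2 proteins, whose expression was followed here together with the membrane partner of VPS13A and with the ER proteins that anchor several family members. The members were taken by gene symbol and not by any measured value, namely Vps13a, Vps13b, Vps13c, Vps13d, Atg2a, Atg2b, Xk, Vapa and Vapb. They are 9 of the 52636 genes in the deposited count table, and all 9 were abundant enough to be tested among 17378 genes.

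RNAseq had been done on S0 cells, the least mature cells that FACS separates in the fetal liver (negative for lineage markers, CD71 and Ter119), from mouse embryos at E12.5. The C57BL/6J embryos were either WT (4 libraries) or double knockout for Vps13a and Vps13c, called DKO (4 libraries), and the comparison asks how S0 cells change when both genes are mutated in the whole body. The Vps13a allele came from a tm1a allele crossed to FLP and then to β-actin-Cre mice, which removes exon 6 in all tissues, and the Vps13c allele is an earlier germline knockout whose deleted part is not given in the sources used here. DKO embryos came from Vps13a+/-/Vps13c-/- parents, a cross that gives no WT embryos, so that genotype and litter cannot be told apart. The 8 libraries hold no single mutants, and whether each library is 1 embryo is not stated, so that p-values measure the spread between these libraries. Library preparation used template switching from low RNA input.

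VPS13 proteins divide their work by membrane. VPS13A links the ER to mitochondria and, through the membrane protein XK, to the plasma membrane. VPS13C links it to late endosomes and lysosomes, VPS13D acts at mitochondria and peroxisomes, and VPS13B acts at the Golgi complex. ATG2A and ATG2B feed lipid into the growing autophagosome. VAPA and VAPB sit in the ER membrane and hold proteins that carry the short FFAT motif, among them VPS13A, VPS13C and VPS13D. The pair of VPS13A and XK is known in blood because loss of either protein in people gives spiked red cells.

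The allele is shown first, since exon 6 is the stretch of Vps13a that DKO cells lack. The sources used here name no transcript for that exon, and exons are numbered as in Vps13a-201, 1 of 3 coding transcripts. Vps13a (ENSMUSG00000046230.10) lies on the minus strand at chr19:16615366-16780933 of GRCm38, the same build as mm10, and its transcript Vps13a-201 has 72 exons. In that transcript exon 6 is a coding exon of 110 bases at chr19:16754252-16754361, here in capitals between 15 bases of exon 5 and 15 bases of exon 7:
Vps13a exons 5 to 7: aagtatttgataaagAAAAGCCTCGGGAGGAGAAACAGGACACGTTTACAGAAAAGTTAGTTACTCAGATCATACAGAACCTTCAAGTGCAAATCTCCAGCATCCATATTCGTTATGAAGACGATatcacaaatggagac
Vps13a exon 5 joined to exon 7: aagtatttgataaagatcacaaatggagac
The exon follows 385 coding bases and is 2 bases over a multiple of 3, so that joining exon 5 to exon 7 shifts the reading frame. In the joined sequence 150 codons are read before a TGA stop in exon 8, against 3166 codons in the annotated protein. Exon 6 makes up 0.618% of the annotated exon length of Vps13a. A count over the whole gene therefore rests almost entirely on sequence outside the deletion.

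**Figure D1:**
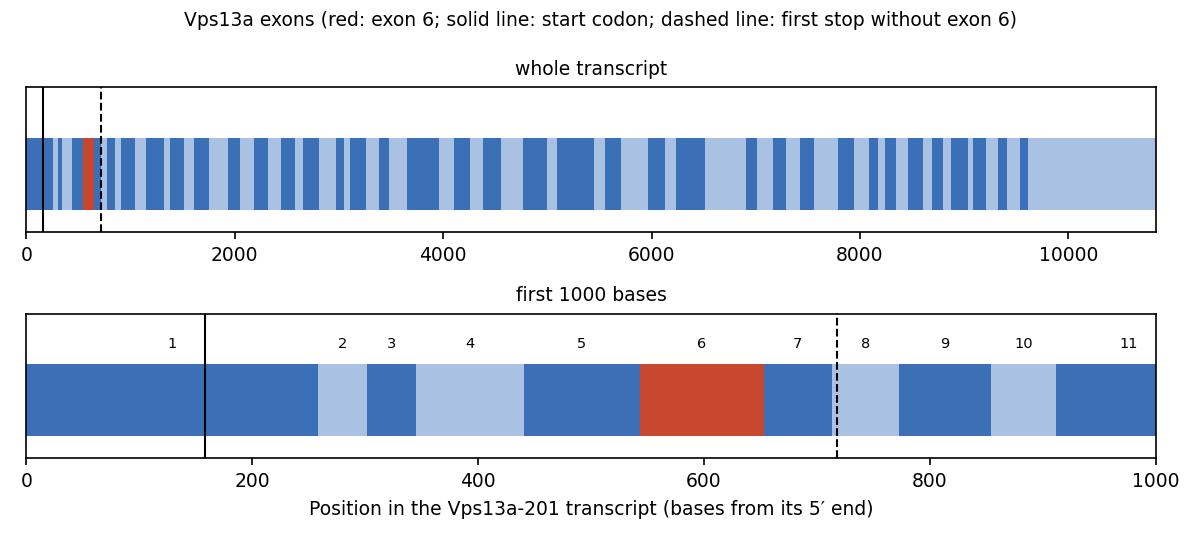
Exons of the Vps13a-201 transcript in order, in alternating blue shades, with position in bases from the 5′ end on the x axis, for the whole transcript (top) and its first 1000 bases (bottom). Exon 6 (red, 110 bases) lies near the 5′ end, and the first in-frame stop without it (dashed line) falls in exon 8.

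The paralog Vps13c has a matching exon. In an alignment of the coding sequences of Vps13a and Vps13c, 61.0% of 9204 aligned bases were identical, and exon 6 of Vps13a aligned to exon 8 of Vps13c at chr9:67871176-67871285 on the plus strand. Of the 110 bases, 73 were identical (66.4%), shown here in capitals:
Vps13c exon 8: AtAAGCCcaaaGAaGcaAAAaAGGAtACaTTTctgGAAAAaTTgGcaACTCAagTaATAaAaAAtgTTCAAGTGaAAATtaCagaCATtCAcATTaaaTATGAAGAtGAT
No stretch of 50 bases was shared between the annotated transcripts of any 2 of the 9 members. Stretches of that length shared with other genes made up at most 8.23% of a member's sequence (Atg2b) and 1.21% for Vps13a.

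Total counts were 42114489 to 50886469 per WT library and 36981439 to 42587815 per DKO library. The lowest raw count of any member in any library was 424. Its counting error would be 4.86% if it were made of independent reads. The counts are derived from coverage, so that the true counting error is not known. Over all 17378 genes the median log2 fold change was 0.03, and 1867 genes were higher and 1878 lower in DKO at an edgeR adjusted p under 0.05, a split that was 2492 and 1242 under upper-quartile scaling and 1172 and 1881 with offsets for GC content and exon length. The summed level of 12 erythroid markers was 949 to 1118 CPM (counts scaled by library total and TMM factor) in WT and 861 to 1347 in DKO. Gata1, the master regulator of red cells, had 8818 ± 1020 and 8235 ± 1820 normalized counts (± SD of 4 libraries each). Tfrc, which encodes the CD71 protein absent from the surface in this gate, was detected as RNA in both groups (3656 ± 425 and 4293 ± 754 normalized counts). Other cell types moved with genotype. The sum of 7 progenitor markers was 847 to 1030 CPM in WT and 447 to 590 in DKO (4 lower), that of 6 neutrophil markers 2319 to 3025 and 121 to 1021 (4 of 5 tested lower), and that of 6 mesenchyme markers 43.5 to 126 and 272 to 967 (5 higher). Hepatoblast markers were abundant in both groups (15324 to 20878 and 4546 to 17660), and none of 8 passed the edgeR test. At an unadjusted p under 0.05, 3 were lower in DKO, as were 3 by DESeq2. The median log2 fold change of the 8 was -0.59. Sums of 7 macrophage markers were 54.3 to 74.3 and 15.05 to 36.1 (1 lower), of 6 endothelial markers 60.4 to 79.2 and 36.9 to 45.2 (1 lower), of 6 megakaryocyte markers 1117 to 1269 and 849 to 2608 (none called by edgeR, by DESeq2 or at an unadjusted p under 0.05), and of 6 neural markers 2.61 to 4.90 and 5.27 to 37.5 (1 of 3 tested higher). The part of these shifts in the results below was not tested, and in sorted bulk cells fewer cells of a type and less RNA per cell cannot be told apart. Sex also differed between the groups. Ddx3y, a Y-linked gene, reached 2911 to 3354 normalized counts in all 4 WT libraries, 2516 in DKO replicate 3 and at most 41.0 in DKO replicates 1, 2 and 4, which instead had 18029 to 27043 normalized counts of Xist against at most 62.3 in the other 5 libraries.

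Of the 9 members, 2 were lower and none was higher in DKO at an edgeR adjusted p under 0.05. The background was 10.8% of all genes lower and 10.7% higher, or 21.6% in either direction. None of the 9 was higher by DESeq2 or at an unadjusted p under 0.05 either. The members that fell were Vps13a and its partner Xk. Only Vps13a passed that test with a log2 fold change below -1, as 2.43% of all genes did, and it was also the only member whose groups did not overlap (14.6% of all genes did so with DKO lower). The remaining 7 had log2 fold changes between 0.03 and 0.49, with intervals given gene by gene below.

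**Figure D2:**
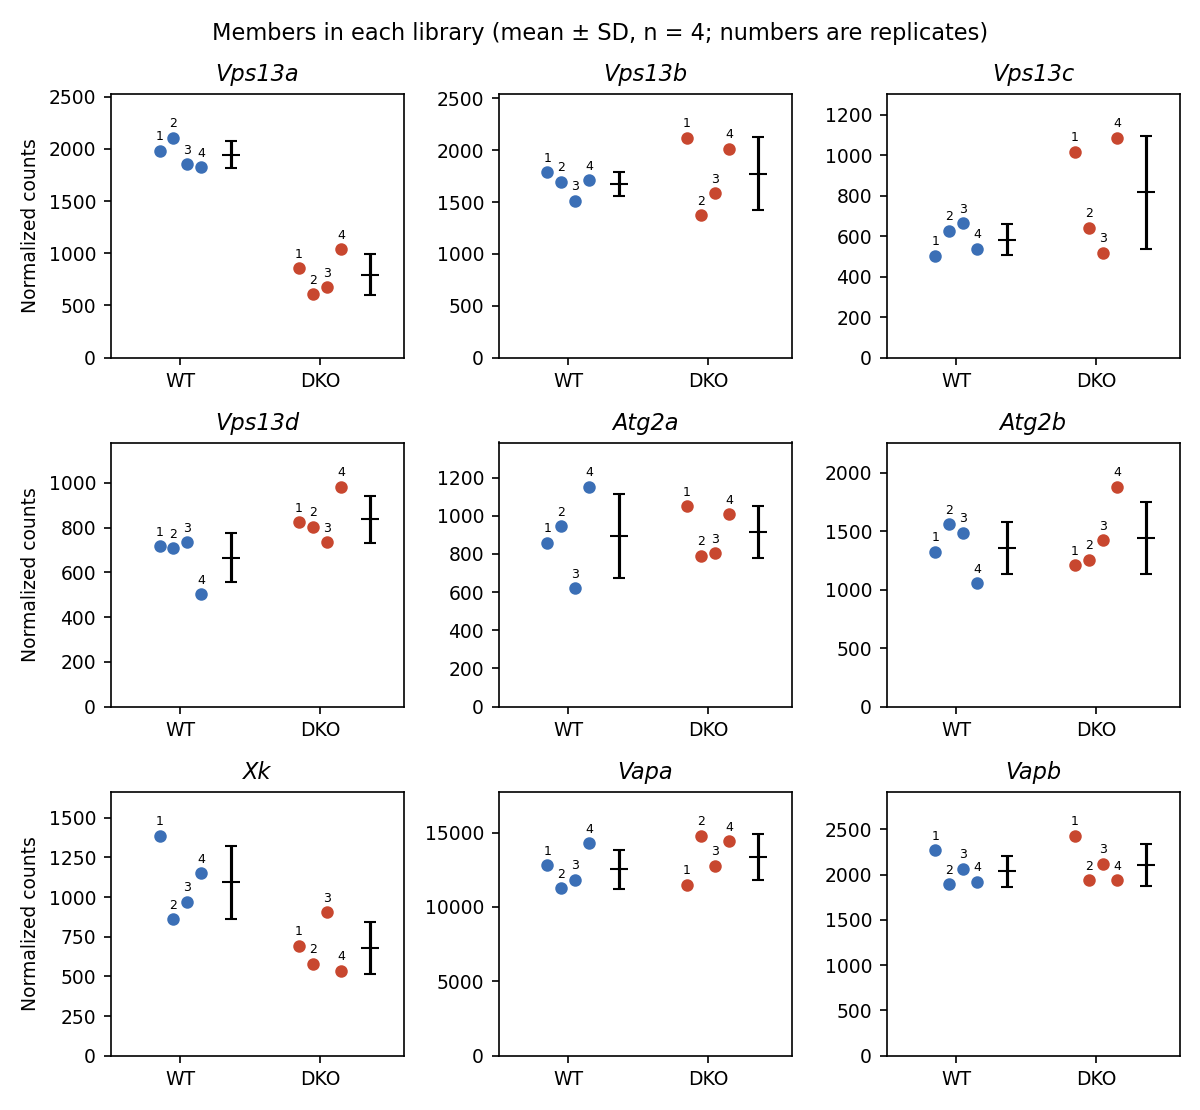
Normalized counts of the 9 members in each library (y axis, from 0, with its own scale for each gene), with WT in blue, DKO in red, replicate numbers beside the points, and mean ± SD of 4 libraries in black. DKO lies below WT in every library for Vps13a, and for the other 8 genes the groups overlap.

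**Figure D3:**
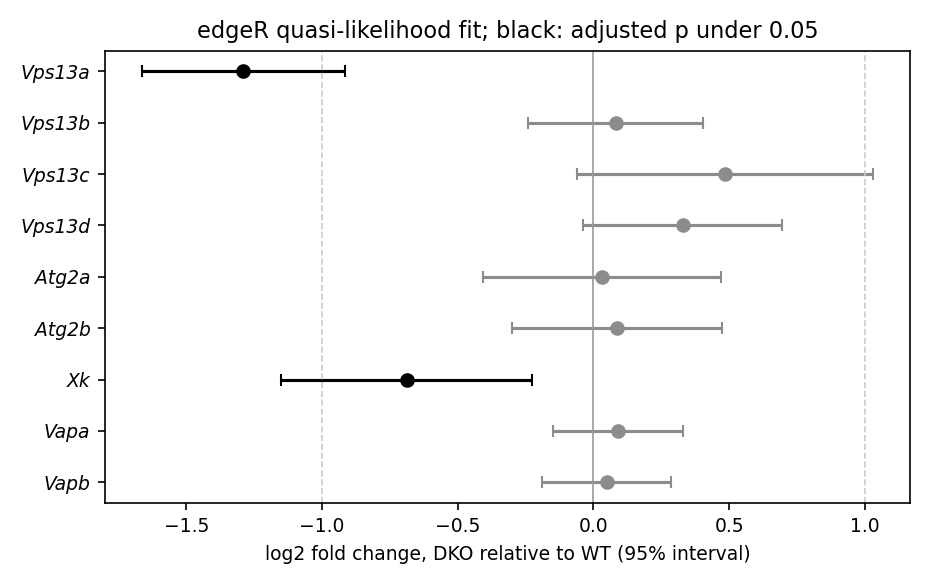
Log2 fold change of DKO relative to WT (x axis) for the 9 members, with 95% intervals from the edgeR fit, black where the adjusted p was under 0.05 and grey otherwise, and dashed lines at -1 and 1. Vps13a at -1.29 and Xk at -0.69 are the members whose intervals exclude 0.

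Normalized counts, which are counts scaled to a common library size, were 1981, 2109, 1856 and 1825 for Vps13a in WT replicates 1 to 4 and 856, 607, 675 and 1039 in DKO replicates 1 to 4. The highest DKO library lay well under the lowest WT library. The mean fell from 1943 ± 130 to 794 ± 194 (± SD of 4 libraries each), a log2 fold change of -1.29 (SE 0.17, 95% interval -1.66 to -0.91, edgeR adjusted p = 0.00247). The exact permutation test, two-sided, gave p = 0.0286, the smallest that 4 against 4 libraries allow. DKO thus kept 40.9% of the WT mean, and between 31.2% (replicate 2) and 53.5% (replicate 4) in single libraries. Vps13a passed the test in each of the 17 alternative fits, with log2 fold changes between -1.52 and -1.18. It shares 1.48% of its exon length with Gm9806 on the other strand, and whether the counting used strand is not stated in the sources used here.

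Vps13c (ENSMUSG00000035284.10, plus strand, chr9:67840396-67995638), the other targeted gene, was at 504, 627, 664 and 538 normalized counts for the WT replicates and 1017, 643, 518 and 1088 for the DKO replicates. DKO replicates 1 and 4 lay above every WT library, and DKO replicates 2 and 3 lay inside the WT range. The means were 583 ± 74.9 and 816 ± 279 (± SD of 4 libraries each), with a log2 fold change of 0.49 (SE 0.24, 95% interval -0.06 to 1.03, edgeR adjusted p = 0.182; exact permutation test, two-sided, p = 0.257). A fall of Vps13c by as much as that of Vps13a lies outside this interval. The whole-gene count of Vps13c did not pass the test and does not check the genotype label, whereas that of Vps13a, which lies mostly outside exon 6, goes in the direction of the label. For Vps13c the log2 fold change was 0.32 without DKO replicate 4, 0.36 without DKO replicate 1 and 0.65 without DKO replicate 3 (edgeR adjusted p = 0.403, 0.334 and 0.0511). With sex as a covariate it was -0.17 (edgeR adjusted p = 0.780), a fit in which the genotype term sets DKO replicate 3 against WT, and with offsets for GC content and exon length it was 0.24 (edgeR adjusted p = 0.450). DKO replicate 1 also stood apart for long genes in general, since the median log2 level of 342 protein-coding genes with a transcript of at least 10000 bases was 0.38 above the WT mean there and between -0.06 and 0.07 in the other DKO libraries. All 4 VPS13 genes have transcripts of that length. Of these long genes, 46 (13.5%) were higher and 20 (5.85%) lower in DKO.

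Vps13b (ENSMUSG00000037646.9, plus strand, chr15:35371160-35931229), the Golgi member of the family, was at 1787, 1697, 1515 and 1710 normalized counts for WT against 2124, 1372, 1588 and 2016 for DKO. Both extremes were DKO libraries, so that the DKO range enclosed the WT range. The log2 fold change was 0.08 (SE 0.14, 95% interval -0.24 to 0.40, edgeR adjusted p = 0.727). Vps13d (ENSMUSG00000020220.16, minus strand, chr4:144972622-145195005), the mitochondrial and peroxisomal member, was at 716, 707, 736 and 504 normalized counts for WT against 823, 803, 735 and 983 for DKO. WT replicate 4 stood low, and DKO replicate 3 was the only DKO library within the WT range. The means were 666 ± 109 and 836 ± 105 (± SD of 4 libraries each), with a log2 fold change of 0.33 (SE 0.16, 95% interval -0.04 to 0.70, edgeR adjusted p = 0.180; exact permutation test, two-sided, p = 0.0571). Neither of these paralogs, which were not targeted, passed the test.

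The make-up of the VPS13 pool shifted with the fall of Vps13a. Levels were expressed as normalized counts per kilobase of annotated exon, so that genes of different length can be set side by side. On that scale Vps13a made up 43.5 ± 0.926% of the summed VPS13 level in WT and 21.0 ± 1.34% in DKO (± SD of 4 libraries each). Vps13b took 31.5 ± 2.37% in WT and 39.6 ± 2.92% in DKO and was the most abundant paralog in every DKO library. The share of Vps13c was 14.3 ± 1.83% in WT and 23.2 ± 3.50% in DKO, and that of Vps13d was 10.7 ± 1.49% and 16.3 ± 2.32%. None of these shares overlapped between the groups, but the shares of 1 library must add up, so that a fall of Vps13a raises the others. With Vps13a left out of the sum all ranges overlapped. Vps13c then held 21.5 to 28.7% in WT and 23.3 to 33.2% in DKO, Vps13b 50.3 to 60.1% and 47.1 to 54.9%, and Vps13d 15.2 to 21.0% and 17.0 to 23.8%.

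**Figure D4:**
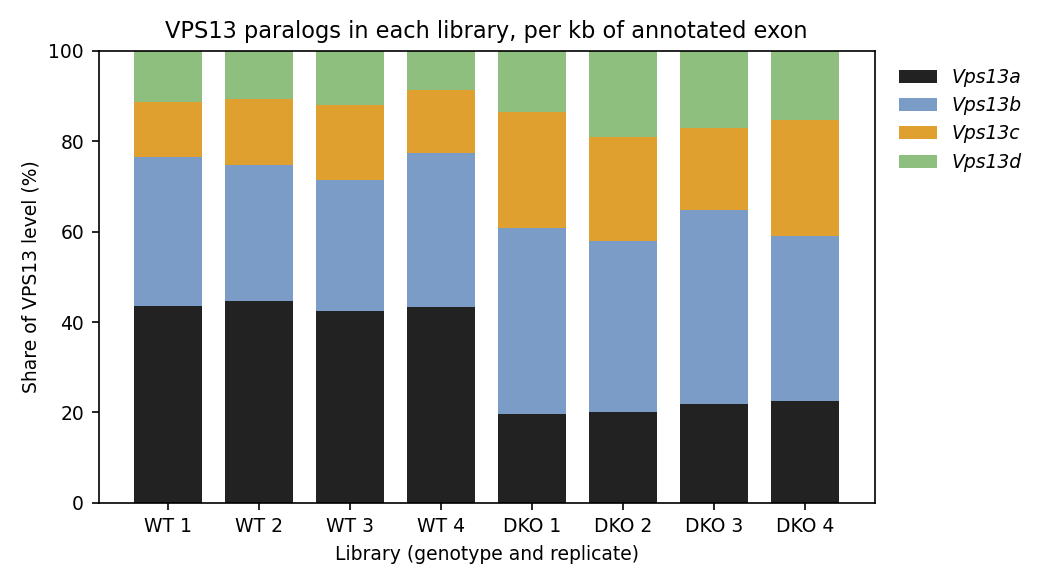
Share of the summed VPS13 level (y axis, percent, normalized counts per kilobase of annotated exon) held by each paralog in each of the 8 libraries (x axis). Vps13a (black) takes 42.4 to 44.7% of each WT library and 19.8 to 22.5% of each DKO library.

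The summed level of the 4 paralogs was 236 to 265 normalized counts per kilobase in WT and 170 to 260 in DKO, ranges that overlap. Between the targeted genes, the log2 ratio of Vps13a to Vps13c was 1.62 ± 0.20 in WT (range 1.36 to 1.85) and -0.13 ± 0.27 in DKO (range -0.38 to 0.26; ± SD of 4 libraries each). Vps13a was thus the more abundant of the pair in every WT library, while in DKO the order differed between libraries. On the length of the coding transcript in place of all annotated exons, a scale chosen after seeing the data, the ratio was 1.83 in WT and 0.09 in DKO.

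The ATG2 genes did not differ between the groups beyond their spread. Atg2a (ENSMUSG00000024773.14, plus strand, chr19:6241668-6262335) was at 859, 945, 619 and 1153 normalized counts for WT against 1051, 792, 803 and 1008 for DKO. All 4 DKO libraries lay inside the WT range, which WT replicates 3 and 4 set. Its log2 fold change was 0.03 (SE 0.20, 95% interval -0.41 to 0.47, edgeR adjusted p = 0.929). Atg2b (ENSMUSG00000041341.10, minus strand, chr12:105616136-105685211) was at 1325, 1559, 1487 and 1056 normalized counts for WT against 1209, 1255, 1422 and 1881 for DKO. Only DKO replicate 4 lay outside the WT range, on the high side. The log2 fold change of Atg2b was 0.09 (SE 0.17, 95% interval -0.30 to 0.47, edgeR adjusted p = 0.757). Atg2b overlaps Gskip on the other strand over 2.85% of its exon length. The log2 ratio of Atg2a to Atg2b per kilobase of exon was 0.19 ± 0.57 in WT and 0.16 ± 0.31 in DKO (± SD of 4 libraries each), and it turned to -0.38 and -0.40 on the length of the coding transcript, so that the order of these paralogs depends on the length used.

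Xk (ENSMUSG00000015342.6, plus strand, chrX:9272756-9313250) encodes the plasma membrane protein that binds VPS13A and, on red cells, the Kell protein. It was at 1388, 861, 970 and 1150 normalized counts for WT against 692, 580, 903 and 536 for DKO. DKO replicate 3 lay inside the WT range, and the other 3 DKO libraries lay below all WT libraries. The mean fell from 1092 ± 230 to 678 ± 164 (± SD of 4 libraries each), with a log2 fold change of -0.69 (SE 0.21, 95% interval -1.15 to -0.23, edgeR adjusted p = 0.0411). The exact permutation test, two-sided, gave p = 0.0571. The gene is X-linked, and the DKO library within the WT range is the only one of that group with Ddx3y and without Xist. With sex as a covariate, a fit in which the genotype term sets DKO replicate 3 against the WT libraries, the log2 fold change of Xk was -0.27 (edgeR adjusted p = 0.596), while that of Vps13a was -1.52 (edgeR adjusted p = 0.0192). The median log2 fold change was -0.03 over 491 X-linked protein-coding genes and -0.01 over 13544 autosomal ones. A median over many genes does not show what sex does to a single gene, and for Xk genotype and sex cannot be told apart. The call of Xk held without WT replicate 2 (0.0495) or DKO replicate 3 (0.0161) and was lost without WT replicates 1, 3 or 4 (0.120, 0.0580 and 0.0967) or DKO replicates 1, 2 or 4 (0.0520, 0.0852 and 0.0861), each an edgeR adjusted p. The call was also lost under upper-quartile scaling, with the replicate number as a block and with the GC and length offsets (edgeR adjusted p = 0.0676, 0.0691 and 0.0666), while DESeq2 gave an adjusted p of 0.00779.

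Kel, which encodes the Kell protein bound to XK, was at 993 ± 103 normalized counts for WT against 1279 ± 501 for DKO (log2 fold change 0.37, edgeR adjusted p = 0.319). XK belongs to a family of lipid scramblases. Of the 8 genes listed for this family and Kell, 4 were tested and none passed the edgeR test, against 1 at an unadjusted p under 0.05 and 1 by DESeq2. The nearest to the threshold was Xkr8, which encodes the scramblase that caspases switch on in dying cells, at 652 ± 111 and 410 ± 93.2 normalized counts (± SD of 4 libraries each; log2 fold change -0.67, edgeR adjusted p = 0.0513).

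The VAP genes had the smallest SEs of the 9 members. Vapa (ENSMUSG00000024091.8, minus strand, chr17:65578327-65613555) was at 12812, 11267, 11825 and 14264 normalized counts for WT against 11489, 14798, 12772 and 14425 for DKO. Its log2 fold change was 0.09 (SE 0.11, 95% interval -0.15 to 0.33, edgeR adjusted p = 0.577). Vapb (ENSMUSG00000054455.4, plus strand, chr2:173737511-173784336) was at 2267, 1893, 2066 and 1923 normalized counts for WT against 2432, 1939, 2122 and 1938 for DKO, with a log2 fold change of 0.05 (SE 0.11, 95% interval -0.19 to 0.29, edgeR adjusted p = 0.779). For both genes the libraries of the groups interleaved, and the intervals reach no further than -0.19 and 0.33. Vapa exceeded Vapb by 3.65 ± 0.18 on the log2 scale in WT and 3.69 ± 0.32 in DKO, per kilobase of exon (± SD of 4 libraries each).

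Across the members, levels per kilobase of annotated exon in WT S0 cells ordered the anchors above the bridges. For Vapb and Xk this order rests on the division by length. Before it, Vapb had 2037 ± 171 normalized counts and Vps13a 1943 ± 130 (± SD of 4 libraries each). Xk (1092 ± 230) then had a lower mean than Vps13a, Vps13b (1677 ± 115) and Atg2b (1357 ± 223). Evenness of coverage along the long transcripts was not tested. Vapa had 3592 ± 376 normalized counts per kilobase of annotated exon, followed by Vapb with 286 ± 23.9 and Xk with 215 ± 45.3 (± SD of 4 libraries each). Vapb and Xk overlapped between libraries. Then came Atg2a (116 ± 28.7), Vps13a (109 ± 7.28), Atg2b (101 ± 16.6) and Vps13b (78.8 ± 5.41), each of which overlapped its neighbour. Vps13c (35.8 ± 4.59) and Vps13d (26.9 ± 4.39) were the scarcest, did not overlap each other and lay below every library of Vps13b. In DKO the order from Xk downward was Xk (134 ± 32.3), Atg2a (119 ± 17.6), Atg2b (107 ± 22.8), Vps13b (83.4 ± 16.7), Vps13c (50.1 ± 17.1), Vps13a (44.6 ± 10.9) and Vps13d (33.8 ± 4.24), and every neighbouring pair overlapped. Vps13a thus went from the level of the ATG2 genes to that of Vps13c and Vps13d. On the length of the coding transcript Vps13c and Vps13d also overlapped in WT (50.6 ± 6.50 and 42.0 ± 6.86).

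Genes whose profile over the 8 libraries was most like that of Vps13a included Zfp874a and Ppm1h. Likeness was the root mean square difference of log2 levels after centring each gene, among 11583 abundant protein-coding genes, and was 0.19 for both. Their log2 fold changes were -1.15 and -1.22, a direction that the choice by likeness to Vps13a fixes. The profile of Vps13c was most like those of Itsn1 (0.13), Mxi1 (0.14) and Pkd2l2 (0.15), of which Itsn1 encodes an endocytic scaffold and Mxi1 a MYC antagonist, with log2 fold changes of 0.43, 0.34 and 0.26, likewise fixed in direction by the choice. None of these genes lies on the chromosome of the targeted gene it resembles.

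Genes that work with the members were examined in 6 lists. In all, 53 of the 58 listed genes were tested, and 1 was higher and 9 were lower in DKO, beside the 10.7% and 10.8% of all genes. All but Wipi1 of the 10 called genes fell.

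**Figure D5:**
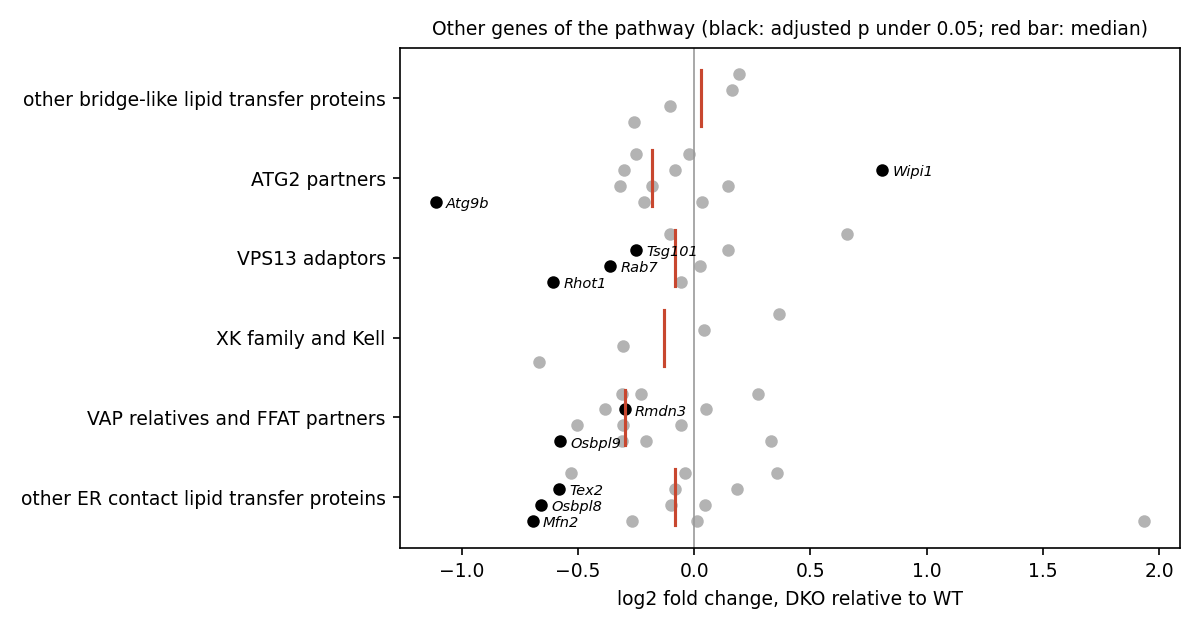
Log2 fold change of DKO relative to WT (x axis) for the tested genes of 6 lists (rows), black and named where the edgeR adjusted p was under 0.05, with the list median as a red bar. The medians lie between -0.30 and 0.03, and Wipi1 is the only named gene to the right of 0.

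None of the other bridge-like proteins passed the edgeR test. The 4 genes of that list, which encode the BLTP1, BLTP2, BLTP3A and BLTP3B proteins, had log2 fold changes of 0.19 (listed as 4932438A13Rik), -0.26 (2610507B11Rik), 0.16 (Uhrf1bp1) and -0.10 (Uhrf1bp1l), with a median of 0.03. At an unadjusted p under 0.05, and by DESeq2, 1 of the 4 was lower (2610507B11Rik, 4778 ± 172 and 3990 ± 478 normalized counts, edgeR adjusted p = 0.0796).

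Among 11 partners of ATG2 (median -0.18), Atg9b fell and Wipi1 rose. Atg9b encodes a scramblase of the autophagosome precursor and went from 249 ± 43.5 to 115 ± 36.6 normalized counts (± SD of 4 libraries each; log2 fold change -1.11, SE 0.29, edgeR adjusted p = 0.0254). Its more abundant paralog Atg9a had 1163 ± 295 and 932 ± 251 normalized counts (log2 fold change -0.32, edgeR adjusted p = 0.364). Wipi1 encodes a phosphoinositide-binding protein and went from 579 ± 82.6 to 1013 ± 264 (± SD of 4 libraries each; log2 fold change 0.81, SE 0.20, edgeR adjusted p = 0.0210). Neither call held in every fit. Wipi1 was not called without WT replicates 1, 2 or 4 (edgeR adjusted p up to 0.0617), and Atg9b was not called without those or DKO replicate 4 (edgeR adjusted p up to 0.0846).

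Of 9 proteins that recruit VPS13 to its membranes, 8 were tested (median -0.08) and 3 were lower. Rhot1, which encodes the outer mitochondrial membrane GTPase Miro1, an adaptor of VPS13D, fell from 4021 ± 445 to 2638 ± 312 normalized counts (± SD of 4 libraries each; log2 fold change -0.61, SE 0.11, edgeR adjusted p = 0.00748). Its paralog Rhot2 had 1883 ± 158 and 1812 ± 224 (log2 fold change -0.06, edgeR adjusted p = 0.762). Tsg101, an ESCRT subunit that binds VPS13D, and Rab7, the late endosomal GTPase that recruits VPS13C, had log2 fold changes of -0.25 and -0.36 (edgeR adjusted p = 0.0476 and 0.0496). These calls lie at the threshold, and each held in 1 of the 8 fits that leave out a library, the one without DKO replicate 1 (edgeR adjusted p up to 0.120 for Tsg101 and 0.118 for Rab7 in the other 7).

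Among 13 relatives and FFAT-carrying partners of the VAP proteins (median -0.30), 2 were lower. Osbpl9 encodes an oxysterol-binding-protein relative at ER and Golgi contacts and fell from 2001 ± 274 to 1341 ± 169 normalized counts (± SD of 4 libraries each; log2 fold change -0.58, SE 0.13, edgeR adjusted p = 0.0149). Rmdn3, whose product tethers mitochondria to ER-bound VAPB, had 3489 ± 174 and 2833 ± 274 (log2 fold change -0.30, edgeR adjusted p = 0.0401), a call that held in 2 of the 8 fits that leave out a library, those without DKO replicates 3 or 4 (edgeR adjusted p up to 0.107 in the other 6).

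Of 13 other lipid transfer or tether proteins of ER contacts (median -0.08), 3 were lower. Mfn2, the mitofusin that also bridges ER and mitochondria, fell from 2168 ± 228 to 1339 ± 86.9 normalized counts (± SD of 4 libraries each; log2 fold change -0.70, SE 0.10, edgeR adjusted p = 0.00359). Osbpl8, which encodes the phosphatidylserine carrier ORP8, fell from 2728 ± 398 to 1724 ± 318 (log2 fold change -0.66, edgeR adjusted p = 0.0154). Tex2, which encodes an ER protein with a lipid-binding SMP domain, fell from 1974 ± 310 to 1320 ± 203 (log2 fold change -0.58, edgeR adjusted p = 0.0224). Osbpl8 and Tex2 were not called without WT replicates 1 or 4 (edgeR adjusted p up to 0.0525 and 0.0672). Rhot1, Osbpl9 and Mfn2 passed in all 8 fits that leave out a library, and with sex as a covariate none of the 10 genes did (edgeR adjusted p = 0.180, 0.0597 and 0.0773 for these 3). In that fit, which rests on DKO replicate 3 against WT, all 10 kept their direction. That direction was fixed beforehand, since for each of these genes DKO replicate 3 already lay beyond every WT library. The log2 fold change was -0.40 for Rhot1 (SE 0.16), -0.78 for Osbpl9 (SE 0.21) and -0.56 for Mfn2 (SE 0.16). It was -1.498 for Atg9b, -0.64 for Osbpl8, -0.30 for Tex2 and 0.55 for Wipi1. Among the DKO libraries only replicate 3 had Ddx3y and not Xist, as all WT libraries did. Neither a lost call nor a kept direction in this fit therefore separates genotype from sex.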

How the data were processed

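RNAseq libraries of S0 cells, 4 WT and 4 DKO, took their group and replicate number from the sample labels, which also name the 8 columns of the count table. The authors trimmed reads with fastp 0.21.0, mapped them to mm10 with HISAT2 2.2.1, removed alignments of quality under 20 and deposited whole-number counts per gene from StringTie 1.3.3b and prepDE, neither normalized nor pooled, which prepDE derives from coverage. The use of strand is not given in the sources used here. Of 52636 identifiers, 52489 matched the GENCODE annotation of GRCm38 without the version and 49121 with it. Exon, transcript and coding sequences came from the same annotation. Protein sequences were not used here.

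The comparison of DKO with WT used edgeR 4.0.16 (R 4.3.3, limma 3.58.1), with filterByExpr for low counts, TMM scaling, the robust form of the quasi-likelihood test and Benjamini-Hochberg adjustment over all 17378 genes, with no covariate. A gene was called at an adjusted p under 0.05. Normalized counts are counts scaled to the mean effective library size. Each member also had an exact permutation test (two-sided) of its log2 CPM with a prior count of 0.5, over 70 arrangements. Depth was at least 36981439 counts per library. The 95% intervals come from the edgeR fit and include the spread between libraries, whereas the counting error given above covers counting only. Sequences and figures were handled in Python 3.11.15 with Biopython 1.88 and matplotlib 3.10.9.

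The members and all lists were chosen with earlier results of these data known, so that no p was taken over a list. The genes named were the 9 members, each listed gene past the threshold (the 4 with the smallest p where a list had more), the 3 genes with a profile most like that of Vps13a and of Vps13c among protein-coding genes with a mean of at least 100 normalized counts, and genes that check labels or markers. One gene that this rule names is not reported here. Other genes of the lists, and the neighbours of the targeted genes, were named after their values were seen. Alternatives were DESeq2 1.42.0, upper-quartile scaling, scaling to library size alone, a filter of at least 10 counts in each library, no filter, protein-coding genes only, a replicate block, a sex covariate, offsets for GC content and exon length from a loess fit with a span of 0.5, and each library left out in turn. The length of the coding transcript as the scale for levels was added after seeing the data. Counts for DKO against WT were simulated for 17378 genes with the dispersions of the data, and the low-count filter was applied again. Of genes changed by a log2 fold of 1, 46 of 100 were called in the right direction, as were 71 of 100 changed by a log2 fold of 2. Of the unchanged genes left after the filter, 12 of 16598 were called. The changed genes were drawn without regard to the levels of the members, so that these shares are not the power for the members. Within a genotype the chi-square between libraries was 18.3 or more per gene, so that none was a second copy of another.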

Additional observations from a re-analysis of the deposited data

Results flagged for a closer look

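The normalized count of Vps13d in WT replicate 4 was 504, while the other WT libraries had 707 to 736. Its gap to the nearest library was 0.878 of the range of the group, above Dixon's 95% critical value for 4 samples. Such values were looked for in 32 groups of 4 libraries, and chance alone gives about 1 in 20. Without WT replicate 4 the log2 fold change of Vps13d in DKO was 0.21 (edgeR adjusted p = 0.393), against 0.33 with all libraries, so that the call did not change.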

How the results depend on the processing

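Vps13a was lower in DKO in all 17 alternative fits, and no member was called higher in any. Of 153 alternative values of the 9 members, 128 kept their direction and their side of the threshold and 25 did not. Of 170 values of the called pathway genes 111 kept both, and of 80 values of levels and shares 76 moved by less than the spread between libraries. The count of members lower in DKO was 1 in place of 2, with Xk no longer called, under upper-quartile scaling, the replicate block, the sex covariate and the GC and length offsets, and 1 to 2 when libraries were left out. The log2 fold change of Xk was -0.58 (edgeR adjusted p = 0.0676), -0.70 (0.0691), -0.27 (0.596) and -0.64 (0.0666) in these fits, and -0.85 to -0.55 with libraries left out. Over all genes, 1867 higher and 1878 lower became 1026 and 1083 with the replicate block, which does not pair the libraries (correlations of -0.07 to 0.04, no library closest to its own number), 476 and 618 with the sex covariate, 1172 higher with the GC and length offsets and 1242 lower under upper-quartile scaling. Leaving out libraries gave 858 to 1915 higher and 898 to 2012 lower. The cause of these changes was not tested. Upper-quartile scaling moved the median of all genes by 0.11 and the offsets by -0.11 on the log2 scale. Pathway genes lower in DKO numbered 4 with the replicate block, 0 with the sex covariate and 3 to 10 with libraries left out, against 9, and those higher numbered 0 with the sex covariate and 0 to 1 with libraries left out, against 1. With the sex covariate all 10 kept their direction, with log2 fold changes such as -1.498 for Atg9b, -0.78 for Osbpl9, -0.64 for Osbpl8 and -0.56 for Mfn2. That direction was fixed beforehand, since DKO replicate 3 lay beyond every WT library for each of these genes. Signs changed for members that were called in no fit. With the sex covariate the log2 fold change was -0.078 for Vps13b, -0.17 for Vps13c and -0.15 for Atg2a. With the offsets it was -0.23 for Vps13b, -0.029 for Vps13d, -0.41 for Atg2a, -0.11 for Atg2b and -0.011 for Vapb. With libraries left out it ranged from -0.12 to 0.17 for Atg2a, -0.066 to 0.16 for Atg2b, -0.014 to 0.18 for Vps13b and -0.025 to 0.10 for Vapb. On the length of the coding transcript, Vps13a held 45.5% of the VPS13 level in WT and 22.4% in DKO, the log2 ratio of Vps13a to Vps13c in WT was 1.83, and that of Atg2a to Atg2b in DKO was -0.40. The tests of the members rest on 4 libraries a group, and whether depth limited them was not tested.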

Other observations

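Genes near the targeted loci were looked at for changes at the mutated loci. Within 1 Mb of Vps13a, 10 genes were tested, with a median log2 fold change of -0.16. Pcsk5, a proprotein convertase, rose in DKO from 38.0 ± 12.8 to 203 ± 109 normalized counts (SD, n = 4 each; log2 fold change 2.42, edgeR adjusted p = 0.0109). Gcnt1, a glycosyltransferase of mucin-type glycans, fell from 1945 ± 223 to 1345 ± 216 (log2 fold change -0.53, edgeR adjusted p = 0.0225), with groups that overlapped. Within 1 Mb of Vps13c, 7 genes were tested, with a median of 0.53. Tpm1, an actin-binding tropomyosin, rose from 7272 ± 253 to 12215 ± 1848 (log2 fold change 0.75, edgeR adjusted p = 0.00357), and C2cd4a rose from 14.2 ± 5.69 to 64.3 ± 31.8 (log2 fold change 2.18, edgeR adjusted p = 0.0213). Rab8b, a GTPase of membrane traffic, fell from 3495 ± 590 to 1749 ± 374 (log2 fold change -0.998, edgeR adjusted p = 0.0056). Over all genes 21.6% were called in either direction, and the neighbours were named after their values were seen. Their calls are given from the main fit only, without the sex covariate or left-out libraries. Whether any of these changes comes from the mutated loci was not tested.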
